A study of Mus musculus with 29 samples.

Results

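The genes described here are the 3 TGF-beta ligands (Tgfb1, Tgfb2 and Tgfb3), the 3 TGF-beta receptors (Tgfbr1, Tgfbr2 and Tgfbr3) and the 4 latent TGF-beta binding proteins (Ltbp1, Ltbp2, Ltbp3 and Ltbp4). They were chosen by symbol, with no measured value used, and are 10 of the 51456 gene symbols measured and 10 of the 13510 that were high enough to test. RNA was sequenced from the aortic arch of male C57BL/6 mice labelled 14 weeks old, fed chow, in 29 libraries. ApoE KO mice, which lack apolipoprotein E, carried a subcutaneous pump that delivered angiotensin II (AngII, filled at 15.27 mg/mL and flowing at 0.11 µL/hr). They were then injected weekly for 4 weeks with vehicle (9 libraries, the vehicle-treated model) or with Scl-Ab at 10 mg/kg, an antibody against the Wnt inhibitor sclerostin (10 libraries, the Scl-Ab-treated model). The WT group (10 libraries) had the same strain and sex, intact Apoe, and received only vehicle, by pump and by injection. The age at pump placement is also given as 14 weeks in every group, so the age at which the arch was taken is not settled.

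Several features of the groups limit what they can show. Knockout and AngII differ together between the model and WT and cannot be told apart, no group has either alone, and no WT group received Scl-Ab. Some model mice died early with aortic rupture, per the labels, so the libraries came from survivors. The protocol lists 9 WT mice for 10 WT libraries, so n counts libraries, and p-values measure the spread between libraries. Apoe, the deleted gene, had values of 3.32 to 9.23 in the vehicle-treated model and 4.64 to 12.5 in the Scl-Ab-treated model, against 146 to 363 in WT, as the labels say. Values are FPKM-like, meaning scaled by gene length, and by the step size of low values 31.6 to 43.5 fragments (median 39.6) make up a value of 1 at a gene length of 2 kb. The arch was flushed and the fat around it scraped off before RNA was taken.

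TGF-beta is made as a precursor whose propeptide stays wrapped around the ligand and keeps it latent. Latent binding proteins tie this complex to fibrillin and other matrix fibres, from which proteases, integrins or thrombospondin release the ligand. Free ligand binds the type II receptor (Tgfbr2), which recruits and phosphorylates the type I receptor (Tgfbr1), and this in turn phosphorylates SMAD2 and SMAD3. The type III receptor betaglycan (Tgfbr3) is a co-receptor that presents ligand, TGF-beta2 above all. Mutations in ligands, receptors and SMADs of this pathway cause inherited aneurysms of the thoracic aorta in humans, and the pathway governs matrix production by smooth muscle cells and fibroblasts.

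The promoter windows of the members that the results turn on are printed first. Each runs from 250 bases before to 50 bases after a RefSeq transcription start (GRCm38.p6), and 8 of the 10 members, all but Tgfb3 and Tgfbr3, matched the table of windows (12 windows). Windows were searched on both strands, overlapping matches included, for CAGAC (the motif bound by SMAD3 and SMAD4), TGANTCA (AP-1), CACGTG (an E-box), GGGCGG (the GC box bound by SP1) and the CArG box of serum response factor. Capitals mark the matches, CAGAC or its complement GTCTG and GGGCGG or its complement CCGCCC. Ltbp2 (chr12:84876442-84876741, minus strand) and Ltbp4 (chr7:27337563-27337862 and chr7:27333599-27333898, minus strand, 2 separate starts) are shown because they moved in opposite directions with no overlap between model and WT. Tgfb1 (chr7:25686752-25687051, plus strand) and Tgfbr1 (chr4:47352972-47353271, plus strand) are the ligand and the receptor that were called higher (limma adjusted p under 0.05) in the vehicle-treated model.

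Ltbp2: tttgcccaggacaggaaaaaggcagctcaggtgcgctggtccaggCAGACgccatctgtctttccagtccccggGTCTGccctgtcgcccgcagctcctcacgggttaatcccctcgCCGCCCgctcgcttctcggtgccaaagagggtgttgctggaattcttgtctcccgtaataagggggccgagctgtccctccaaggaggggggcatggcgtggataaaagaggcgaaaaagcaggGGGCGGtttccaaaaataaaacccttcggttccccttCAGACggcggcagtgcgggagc
Ltbp4, first start: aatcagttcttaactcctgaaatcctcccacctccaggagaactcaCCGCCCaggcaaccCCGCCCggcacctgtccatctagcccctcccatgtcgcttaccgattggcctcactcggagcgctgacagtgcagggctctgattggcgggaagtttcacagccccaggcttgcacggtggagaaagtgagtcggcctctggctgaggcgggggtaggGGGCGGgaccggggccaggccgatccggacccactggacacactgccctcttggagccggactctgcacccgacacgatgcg
Ltbp4, second start: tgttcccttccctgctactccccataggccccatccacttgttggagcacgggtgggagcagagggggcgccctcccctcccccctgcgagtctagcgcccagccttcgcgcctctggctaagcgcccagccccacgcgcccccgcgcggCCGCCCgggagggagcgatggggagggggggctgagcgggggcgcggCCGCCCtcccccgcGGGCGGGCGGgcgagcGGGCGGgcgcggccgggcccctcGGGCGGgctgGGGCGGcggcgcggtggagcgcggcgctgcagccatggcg
Tgfb1: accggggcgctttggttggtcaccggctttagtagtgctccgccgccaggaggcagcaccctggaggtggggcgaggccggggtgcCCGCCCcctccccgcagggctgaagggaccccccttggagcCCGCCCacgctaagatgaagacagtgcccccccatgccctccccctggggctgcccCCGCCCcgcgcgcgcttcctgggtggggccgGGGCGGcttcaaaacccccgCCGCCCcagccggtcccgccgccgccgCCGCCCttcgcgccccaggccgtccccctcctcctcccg
Tgfbr1: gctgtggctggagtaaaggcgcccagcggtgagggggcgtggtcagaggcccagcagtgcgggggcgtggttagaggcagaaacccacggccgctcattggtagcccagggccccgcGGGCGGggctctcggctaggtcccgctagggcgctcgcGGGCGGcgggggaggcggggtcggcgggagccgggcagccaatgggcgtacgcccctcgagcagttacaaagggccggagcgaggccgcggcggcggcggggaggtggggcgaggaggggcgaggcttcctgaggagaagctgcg

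The Ltbp2 window held 3 CAGAC matches and 2 GC boxes. The printed Ltbp4 windows held no CAGAC match and 3 and 7 GC boxes. The printed Tgfb1 and Tgfbr1 windows held no CAGAC match either, and 6 and 2 GC boxes. A second Tgfbr1 window, not printed, held 1 CAGAC match, and the Ltbp3 window held 2. Among members not called in the vehicle-treated model, the Ltbp1 windows held 1 and 2 CAGAC matches, the Tgfb2 window 2 and the Tgfbr2 window 1. CAGAC was present in 7 of the 12 windows (6 of 8 members), while 49.6% of 32851 RefSeq windows of this length hold it. A GC box was present in 6 of 12 windows, against 35.7% of all windows. An AP-1 match (7.81% of all windows) was found in the Ltbp3 window alone, an E-box (7.15%) in the Tgfb2 window alone, and a CArG box (1.63%) in none of the 12. These are letter matches and not measured binding sites. The deposited values are per gene and do not separate the starts of Ltbp4, whose long and short forms begin at different promoters.

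In WT 3 of the 4 latent binding proteins were the most abundant members. Per length, Ltbp4 was highest (mean value 234 ± 13.5, SD, n = 10), followed by Ltbp1 (202 ± 18.8) with overlapping ranges, and then Ltbp3 (112.5 ± 6.19), apart from both. Tgfb3 (55.6 ± 10.7), Tgfbr1 (44.8 ± 9.83), Tgfbr2 (30.7 ± 4.09) and Ltbp2 (30.2 ± 1.76) followed, each overlapping its neighbour in this order. Tgfbr3 (22.3 ± 2.18), Tgfb1 (18.1 ± 3.56) and Tgfb2 (15.5 ± 3.84) were lowest, also with overlapping neighbours, and Tgfbr3 lay apart from Ltbp2. In the vehicle-treated model the order changed at the top: Ltbp1 (236 ± 67.0, n = 9) came first, then Ltbp3 (138 ± 23.9) and Ltbp4 (129 ± 13.55), with ranges that overlapped from each to the next. Ltbp2 was the fourth member in both model groups, where it had been the seventh in WT.

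**Figure D1:**
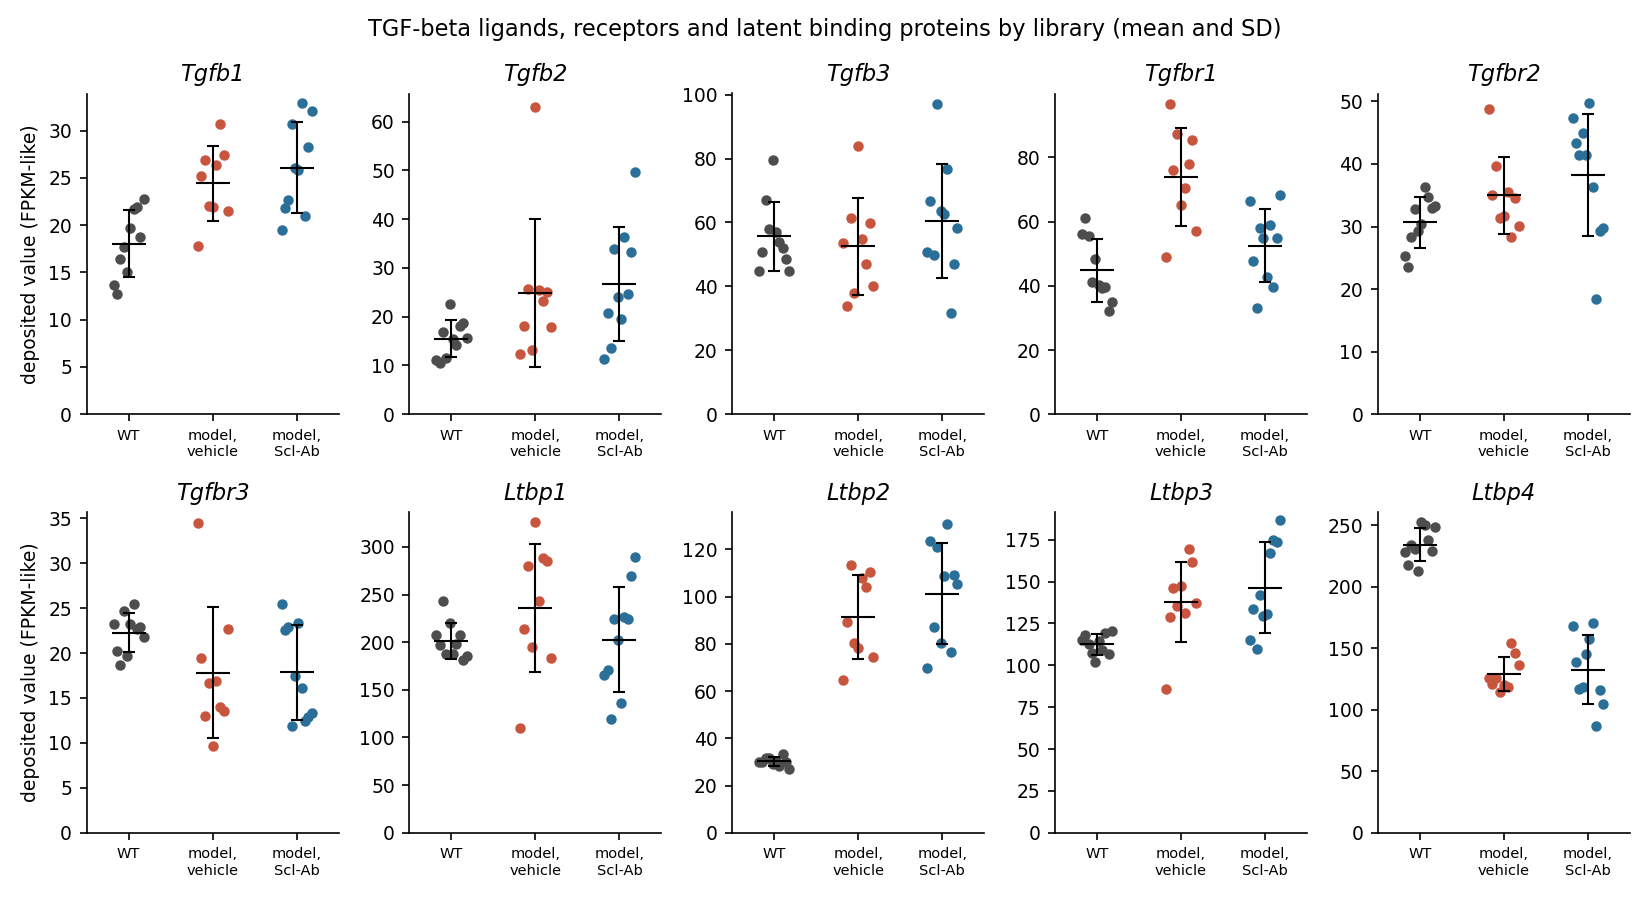
Deposited FPKM-like value of each member (y axis, from 0) in each of the 29 libraries, by group on the x axis; points are libraries, the long bar is the mean and the whiskers the SD. Ltbp2 lies above all WT libraries in every model library, Ltbp4 below all of them, and the Tgfbr1 mean is highest in the vehicle-treated model (73.9).

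The first comparison asked how the arch of the vehicle-treated model differed from WT. Of the 10 members, 4 were higher (Tgfb1, Tgfbr1, Ltbp2 and Ltbp3), 1 was lower (Ltbp4) and 5 did not pass the test (limma adjusted p under 0.05). Of all 13510 genes tested, 53.7% were called, 22.7% higher and 31% lower, so 5 of 10 is near the background. Of the members, 2 (Ltbp2 and Ltbp4) had no overlap between the groups, against 16.8% of all genes. The members' median log2 change was 0.23 and that of all genes -0.04. In the Scl-Ab-treated model against the same WT libraries, 4 members were higher (Tgfb1, Tgfb2, Ltbp2 and Ltbp3) and 1 was lower (Ltbp4). In that comparison 50.4% of all genes were called, 19.8% higher and 30.5% lower. Again 2 members (Ltbp2 and Ltbp4) did not overlap, against 12.3% of all genes. The comparisons share their WT libraries and are not independent.

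All of this was measured in whole tissue, where fewer cells of a type and less RNA per cell cannot be told apart. The cellular makeup differed between the groups. All 12 macrophage markers rose in the vehicle-treated model, with a summed value of 1122 to 3447 against 110 to 369 in WT. Of 12 smooth muscle markers 11 fell, and their sum was 5326 to 17600 against 18129 to 21798 in WT. Of 10 endothelial markers 7 rose, and 3 of 8 fibroblast markers rose (Lum, Dpt and Col14a1). The adipocyte marker sum was 631 to 10096 in the vehicle-treated model, 853 to 7444 in the Scl-Ab-treated model and 409 to 2659 in WT, with 1 of 10 markers called higher (Cfd). No T cell marker of 6 reached the level needed for a test. The part of these shifts in the members' values was not tested except where a fit is given.

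Among the ligands, Tgfb1 rose in the model and Tgfb3 did not pass in either comparison with WT. Tgfb1, the isoform made by many cell types including macrophages and platelets (chromosome 7, 25687002 to 25705077), had values of 12.7, 18.2 and 22.8 in WT (lowest, median and highest of 10 libraries). In the vehicle-treated model they were 17.8, 25.3 and 30.7, and in the Scl-Ab-treated model 19.5, 25.98 and 32.9. The ranges overlapped, and 5 of 9 vehicle libraries and 6 of 10 Scl-Ab libraries lay above every WT library. Tgfb1 was 1.34-fold higher in the vehicle-treated model (log2 0.42, SE 0.11, limma adjusted p = 0.00273) and 1.42-fold higher in the Scl-Ab-treated model (log2 0.51, SE 0.11, limma adjusted p = 0.000372). The WT libraries were not uniform: those numbered 20 to 24 in their titles had Tgfb1 values of 12.7 to 17.7 and those numbered 25 to 29 had 18.7 to 22.8. With the latter as the only WT libraries, a comparison added after the values were seen, the change from WT to the vehicle-treated model was log2 0.20 (limma adjusted p = 0.209) and that to the Scl-Ab-treated model log2 0.28 (limma adjusted p = 0.0716), so neither passed.

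Tgfb2, an isoform that betaglycan helps to present (chromosome 1, 186622792 to 186705989), was the most variable ligand. Its values were 10.4, 15.6 and 22.6 in WT, 12.4, 23.3 and 63.1 in the vehicle-treated model, and 11.3, 24.4 and 49.6 in the Scl-Ab-treated model (lowest, median, highest). The highest value, 63.1, came from vehicle library 5, and the next vehicle library had 25.8. The difference from WT was log2 0.53 (SE 0.25, limma adjusted p = 0.0698) in the vehicle-treated model and did not pass. In the Scl-Ab-treated model it was log2 0.66 (SE 0.24, 1.59-fold, limma adjusted p = 0.0218) and passed. The direct comparison of Scl-Ab with vehicle gave log2 0.13 (SE 0.25, limma adjusted p = 0.79), so the model groups were not shown to differ. Each set of 5 WT libraries taken alone left the Scl-Ab value without a call (limma adjusted p = 0.0504 and 0.169).

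Tgfb3, the most abundant ligand per length (chromosome 12, 86056745 to 86079041), had values of 44.8, 52.9 and 79.6 in WT, 33.9, 53.5 and 84.0 under vehicle, and 31.6, 60.5 and 97.1 under Scl-Ab. The groups overlapped almost fully, and the changes from WT were log2 -0.11 (limma adjusted p = 0.59) and 0.08 (limma adjusted p = 0.679). Its 3' end overlaps Ttll5 on the other strand, which had values of 1.83 to 3.88, and whether the authors' counting used strand is not given in the sources used here. Of the summed ligand value, Tgfb3 made up 62.3 ± 5.40% in WT, 51.7 ± 5.58% in the vehicle-treated model and 53.4 ± 8.36% with Scl-Ab (mean and SD over libraries). The share of Tgfb1 was 20.5 ± 4.23%, 25.2 ± 5.90% and 23.5 ± 2.63% in the same order, and that of Tgfb2 was 17.2 ± 2.68%, 23.1 ± 6.12% and 23.2 ± 7.33%. The ranges of all 3 shares overlapped between WT and the model.

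Among the receptors, the type I receptor was the only member called, and the only member of all 10 that differed between Scl-Ab and vehicle. Tgfbr1, the kinase that phosphorylates SMAD2 and SMAD3 (chromosome 4, 47353222 to 47414931), had values of 32.2, 40.7 and 61.1 in WT and 49.0, 76.0 and 96.7 in the vehicle-treated model. In the Scl-Ab-treated model they were 33.2, 55.0 and 68.4. Of 9 vehicle libraries 7 lay above every WT library, whereas 2 of 10 Scl-Ab libraries did. Tgfbr1 was 1.64-fold higher in the vehicle-treated model than in WT (log2 0.71, SE 0.14, limma adjusted p = 0.000107). This call held with either set of 5 WT libraries, at log2 0.47 with those numbered 20 to 24 (limma adjusted p = 0.0218) and log2 0.95 with those numbered 25 to 29 (limma adjusted p = 5.08e-05).

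Tgfbr2, the type II receptor that binds free ligand (chromosome 9, 116084293 to 116175360), had values of 23.6, 31.6 and 36.3 in WT, 28.3, 34.6 and 48.8 under vehicle, and 18.4, 41.4 and 49.7 under Scl-Ab. The changes from WT were log2 0.18 (SE 0.13, limma adjusted p = 0.268) and 0.27 (SE 0.13, limma adjusted p = 0.0853), neither past the threshold. In the Scl-Ab group, library 17 had the lowest value (18.4) while 6 of 10 libraries exceeded every WT library. Without library 17 the change from WT was log2 0.38 (limma adjusted p = 0.0029).

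Tgfbr3, the co-receptor betaglycan (chromosome 5, 107106570 to 107289629), had values of 18.6, 22.8 and 25.41 in WT, 9.65, 16.6 and 34.5 under vehicle, and 11.9, 16.8 and 25.45 under Scl-Ab. In each model group 6 libraries lay below every WT library and 1 lay above. The changes were log2 -0.38 (SE 0.17, limma adjusted p = 0.0526) and -0.35 (SE 0.16, limma adjusted p = 0.0717), just outside the threshold. Both passed with the 2 groups alone (limma adjusted p = 0.042 and 0.0284). In an exact Wilcoxon test the former passed (adjusted p = 0.0328) and the latter did not (adjusted p = 0.14). Neither passed with either set of 5 WT libraries (limma adjusted p = 0.107 to 0.288). Vehicle library 1, with 34.5, was the exception in its group, and without it the change was log2 -0.51 (limma adjusted p = 0.00488). Of the summed receptor value, Tgfbr1 made up 45.5 ± 7.69% in WT, 58.2 ± 9.00% in the vehicle-treated model and 48.7 ± 8.81% with Scl-Ab. The share of Tgfbr3 was 22.85 ± 2.74%, 14.1 ± 5.64% and 16.5 ± 4.12%.

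The latent binding proteins held the widest differences among the members. Ltbp2, which binds fibrillin microfibrils but, unlike the other members of its family, does not bind latent TGF-beta (chromosome 12, 84783212 to 84876532), had values of 27.1, 30.1 and 33.2 in WT. In the vehicle-treated model they were 64.8, 89.3 and 113, and in the Scl-Ab-treated model 69.7, 107 and 131. Every model library exceeded every WT library. Ltbp2 was 2.92-fold higher in the vehicle-treated model (log2 1.54, SE 0.11, limma adjusted p = 4.80e-12) and 3.22-fold higher with Scl-Ab (log2 1.69, SE 0.11, limma adjusted p = 6.87e-13). Its promoter window is printed above.

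Ltbp4, which anchors latent TGF-beta and takes part in elastic fibre assembly (chromosome 7, 27305136 to 27337692), went the other way. Its values were 213, 233 and 253 in WT, 114, 126 and 154 in the vehicle-treated model, and 87.0, 129 and 170 in the Scl-Ab-treated model. Every model library lay below every WT library. Ltbp4 was 0.551-fold in the vehicle-treated model (log2 -0.86, SE 0.09, limma adjusted p = 1.59e-08) and 0.556-fold with Scl-Ab (log2 -0.85, SE 0.09, limma adjusted p = 1.24e-08). The ratio of Ltbp4 to Ltbp2 within a library was 7.80 ± 0.73 in WT, 1.46 ± 0.29 in the vehicle-treated model and 1.36 ± 0.45 in the Scl-Ab-treated model (mean and SD), and its lowest WT value, 7.18, lay above its highest model value, 2.41. The smooth muscle marker sum fell and the macrophage sum rose in the same libraries, and their part in these changes was not tested. Ltbp4 and Tgfb1 lie on chromosome 7, as does Apoe. For these genes, any difference in DNA linked to the deleted gene cannot be told apart from its loss or from AngII.

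Ltbp3, a carrier of latent TGF-beta (chromosome 19, 5740904 to 5758532), was 102, 113.5 and 120 in WT, 85.7, 137 and 169 under vehicle, and 110, 138 and 187 under Scl-Ab. Of 9 vehicle libraries 8 were above every WT library and 1, library 1, was below them all. The rise was 1.21-fold in the vehicle-treated model (log2 0.27, SE 0.10, limma adjusted p = 0.0254) and 1.28-fold with Scl-Ab (log2 0.36, SE 0.10, limma adjusted p = 0.00386). The former call was lost without vehicle library 7 (limma adjusted p = 0.0565) or 8 (limma adjusted p = 0.0533) and with no filter on low values (limma adjusted p = 0.0505). It was also lost with either set of 5 WT libraries (limma adjusted p = 0.0833 and 0.14).

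Ltbp1, the best known carrier of latent TGF-beta in the vessel wall (chromosome 17, 75005568 to 75392512), had values of 182, 198 and 243 in WT, 110, 243 and 326 under vehicle, and 119, 213 and 289 under Scl-Ab. The model groups were spread on both sides of WT, with 5 vehicle libraries above and 1 below all WT libraries. The changes were log2 0.17 (SE 0.16, limma adjusted p = 0.391) and -0.04 (SE 0.16, limma adjusted p = 0.857). Summed over the 4 latent binding proteins the value was 579 ± 21.5 for WT, 595 ± 107 under vehicle and 583 ± 82.5 under Scl-Ab, ranges that overlapped. Within that sum the share of Ltbp4 was 40.5 ± 2.13% in WT, 22.3 ± 4.43% under vehicle and 23.2 ± 6.00% under Scl-Ab. The share of Ltbp2 was 5.22 ± 0.32%, 15.45 ± 1.88% and 17.4 ± 3.14% in the same order, and that of Ltbp3 was 19.5 ± 0.99%, 23.3 ± 1.58% and 25.05 ± 2.57%. None of these 3 shares overlapped between WT and either model group.

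**Figure D2:**
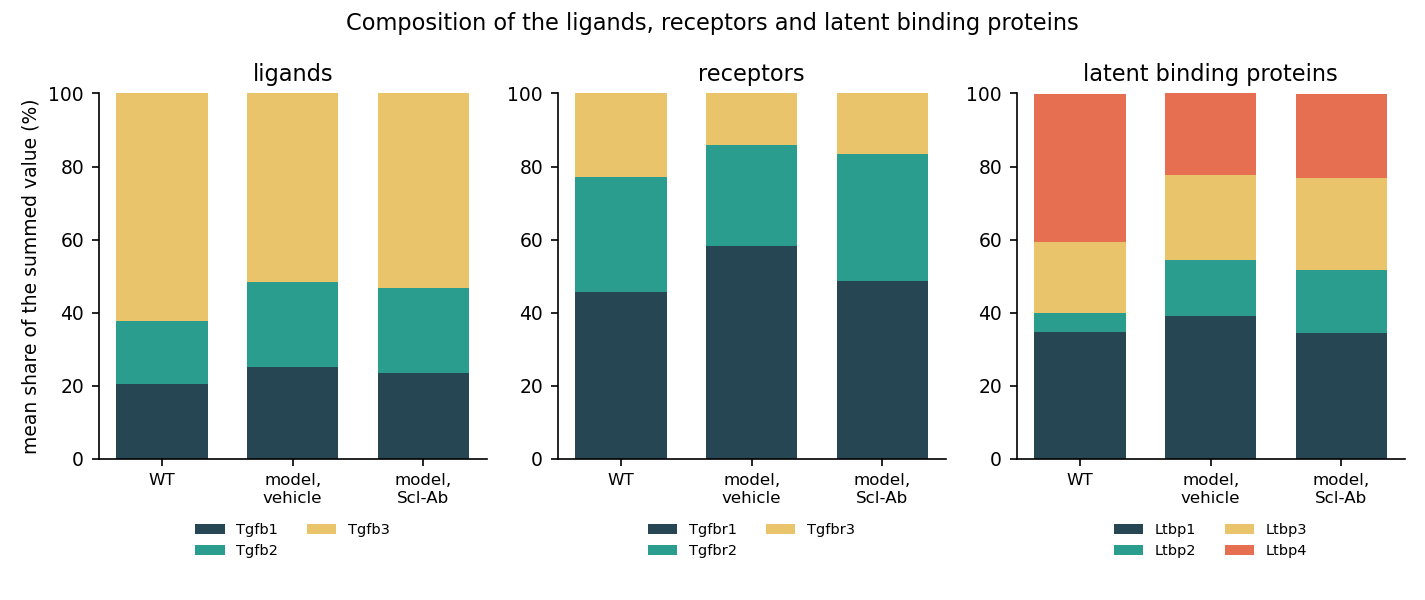
Mean share (y axis, percent) of each ligand, receptor and latent binding protein in the summed FPKM-like value of its class, by group on the x axis; colours within a bar are genes, and the SDs are in the text. The Ltbp4 share is 40.5% in WT and 22.3% in the vehicle-treated model, and the Ltbp2 share 5.22% and 15.45%.

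Scl-Ab and vehicle were then set against each other in the model mice. Of the 10 members 1 was lower with Scl-Ab (Tgfbr1) and 9 did not pass, against 7.44% of all genes called, 2.64% higher and 4.8% lower. No member had groups without overlap, against 0.141% of all genes. The members' median log2 change was 0.08 and that of all genes -0.01. Tgfbr1 was 0.713-fold (95% confidence interval 0.585 to 0.869) with Scl-Ab (log2 -0.49, SE 0.14, limma adjusted p = 0.0317), and 4 of 10 Scl-Ab libraries lay below every vehicle library. Against WT, Tgfbr1 in the Scl-Ab-treated model was 1.17-fold (95% confidence interval 0.962 to 1.41, limma adjusted p = 0.176). That value depended on the WT libraries: it was log2 -0.02 (limma adjusted p = 0.944) against those numbered 20 to 24 and log2 0.46 (limma adjusted p = 0.0246) against those numbered 25 to 29. With the mean adipocyte marker level as a term in the fit, Tgfbr1 was also called higher than in WT (log2 0.41, limma adjusted p = 0.00507).

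The Tgfbr1 call rests on the settings. It held with a pseudocount of 0.1 and with trimmed mean of M-values scaling (limma adjusted p = 0.032 and 0.0388). With the adipocyte marker level as a term it held too (limma adjusted p = 0.0142). It was lost when the 2 groups were fitted alone (limma adjusted p = 0.0682), with no filter (limma adjusted p = 0.0755), with values scaled to equal sums (limma adjusted p = 0.107) and in an exact Wilcoxon test (adjusted p = 0.0826). It was also lost with a term for the range of the codes in the library titles (limma adjusted p = 0.0691) and without vehicle library 2, 4 or 8 or Scl-Ab library 12, 15 or 17 (limma adjusted p = 0.0523 to 0.0714). An index of the circadian clock, the mean log2 level of 8 genes such as Dbp and Per1 to Per3 less that of 4 genes such as Arntl, also differed between the groups. It was -1.22 to 2.20 with vehicle, 1.76 to 3.90 with Scl-Ab and 0.12 to 4.34 in WT. With that index in the fit the Tgfbr1 difference was log2 -0.63 (limma adjusted p = 0.927), and none of the 13510 genes was called (621 at an unadjusted p under 0.05).

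For the other 9 members the intervals give the size that the data allow. The difference between Scl-Ab and vehicle was 1.01-fold for Ltbp4 (95% confidence interval 0.882 to 1.15), 1.06-fold for Ltbp3 (0.916 to 1.22) and 1.102-fold for Ltbp2 (0.941 to 1.29). It was 1.06-fold for Tgfb1 (0.903 to 1.249), 1.14-fold for Tgfb3 (0.908 to 1.44) and 1.098-fold for Tgfb2 (0.775 to 1.56), the widest of the 10. For Tgfbr2 it was 1.06-fold (0.881 to 1.29), for Tgfbr3 1.02-fold (0.809 to 1.29) and for Ltbp1 0.866-fold (0.688 to 1.09). The limma adjusted p-values of these 9 ran from 0.457 to 0.957. Endothelial markers were lower with Scl-Ab for 3 of 10 (Pecam1, Vwf and Nos3), their sum being 106 to 292 against 207 to 318 with vehicle, and the cardiac muscle marker sum was 43.2 to 893 against 29.7 to 394. The part of these differences in the Tgfbr1 value was not tested.

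**Figure D3:**
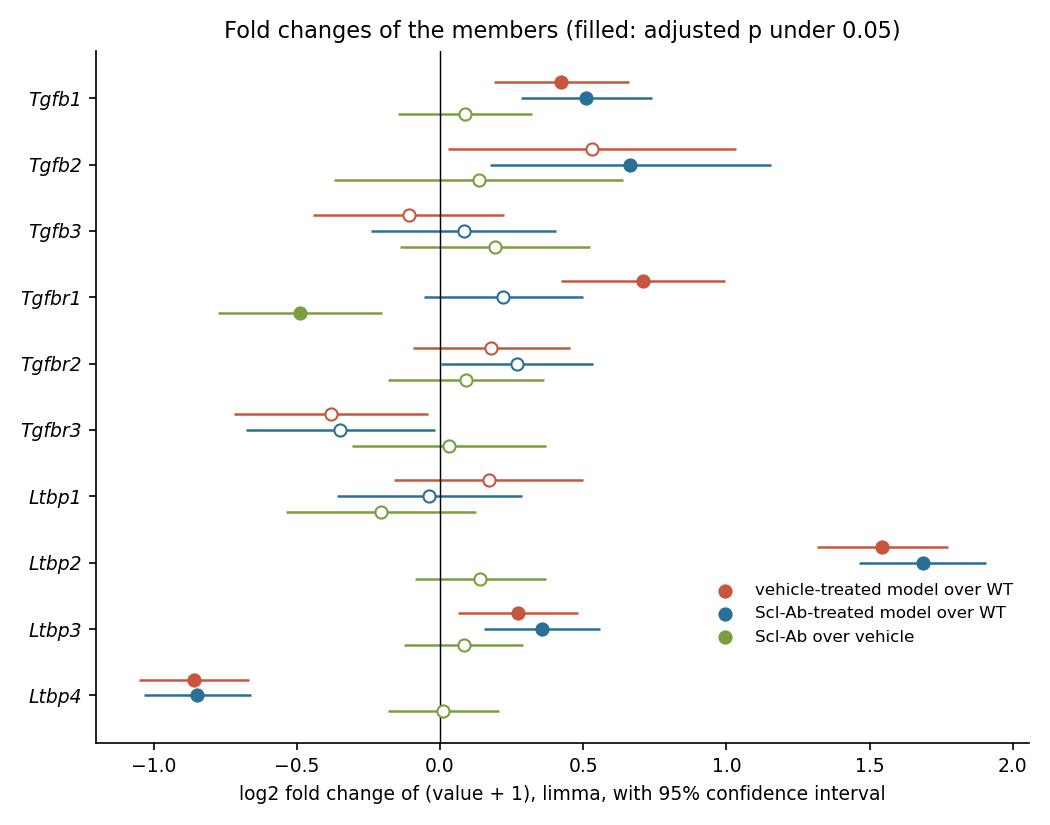
Log2 fold change of value + 1 (x axis) of each member (y axis) in 3 comparisons, with 95% confidence intervals from limma; filled points have an adjusted p under 0.05. Ltbp2 (1.54 and 1.69 over WT) and Ltbp4 (-0.86 and -0.85) lie farthest from 0, and of the comparisons of Scl-Ab with vehicle only that of Tgfbr1 (-0.49) is filled.

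Within groups several members followed the adipocyte marker level, taken as the mean log2(value + 1) of 10 genes such as Adipoq and Plin1. These relations were looked for after the values had been seen, and 60 were computed (10 members, 3 groups, this level and the clock index), with Benjamini-Hochberg adjustment over the 60. Ltbp1 fell with the adipocyte level in the vehicle-treated model, with Pearson's r = -0.961 (exact permutation p = 8.27e-06, adjusted 0.000496) and Spearman's rho = -0.983 (exact permutation p = 4.96e-05, adjusted 0.00298). It fell in the Scl-Ab-treated model too, with r = -0.859 (permutation p = 0.0016, adjusted 0.016) and rho = -0.855 (permutation p = 0.0029, adjusted 0.0364). Without the 2 libraries farthest from the median adipocyte level r was -0.981 and -0.905. In WT it was -0.362 (permutation p = 0.294, adjusted 0.495) with rho = -0.564 (permutation p = 0.0959, adjusted 0.288). In both model groups the smooth muscle marker sum tended to run opposite to the adipocyte level. With Scl-Ab it was 5897 in library 12, at the highest level (7.54), and 14024 in library 18 (5.24). Library 13, at the lowest level (4.62), had 10343. Relations with the adipocyte level in the model groups therefore cannot be told apart from relations with the smooth muscle sum.

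Tgfbr3 rose with the adipocyte level in the vehicle-treated model, with r = 0.954 (exact permutation p = 5.79e-05, adjusted 0.00174) and rho = 0.90 (exact permutation p = 0.00203, adjusted 0.0364). In the Scl-Ab-treated model r was 0.86 (permutation p = 0.00376, adjusted 0.0226) and rho 0.842 (permutation p = 0.00364, adjusted 0.0364). Without the 2 farthest libraries r was 0.886 and 0.812. In WT the r of Tgfbr3 was 0.133 (permutation p = 0.726, adjusted 0.765). Tgfb2 fell with the level, with r = -0.803 in the vehicle-treated model (exact permutation p = 0.00535, adjusted 0.0292) and rho = -0.85 (exact permutation p = 0.00607, adjusted 0.0364). For Tgfb2 with Scl-Ab r was -0.862 (permutation p = 0.00111, adjusted 0.0133) and rho -0.83 (permutation p = 0.00512, adjusted 0.0364), and r was -0.823 and -0.87 without the 2 farthest libraries. In WT the sign was the opposite, with r = 0.634 for Tgfb2 (permutation p = 0.0452, adjusted 0.136), and 0.178 without the 2 farthest libraries. Ltbp3 in the vehicle-treated model (r = -0.803, exact permutation p = 0.00372, adjusted 0.0226, rho = -0.783, adjusted 0.0939) and Tgfbr1 in WT (r = -0.809, permutation p = 0.00109, adjusted 0.0133, rho = -0.818, adjusted 0.0364) fell with the level as well, with r of -0.726 and -0.809 without the 2 farthest libraries. Vehicle library 1, with the highest adipocyte sum (10096) and the lowest smooth muscle sum (5326), had the lowest Ltbp1, Ltbp2, Ltbp3, Tgfb1, Tgfb2 and Tgfbr1 values of its group and the highest Tgfbr2 and Tgfbr3 values. Vehicle library 5, with the lowest adipocyte sum (631) and the highest smooth muscle sum (17600), had the highest Ltbp1, Tgfb2 and Tgfb3 and the lowest Tgfbr3.

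With the adipocyte level as a term in the fit, 8 of 10 members were called in the vehicle-treated model against WT, 6 higher and 2 lower, against 54.8% of all genes in that fit. The 3 added were Tgfb2 (log2 0.73, limma adjusted p = 0.00551), Ltbp1 (log2 0.37, limma adjusted p = 0.00403) and Tgfbr3 (log2 -0.58, limma adjusted p = 9.24e-05). This fit took 1 slope for all 3 groups, and within the model groups its term cannot be told apart from the smooth muscle sum. Within WT, r with the level was 0.634 for Tgfb2, -0.362 for Ltbp1 and 0.133 for Tgfbr3, unlike in the model groups. Whether the 3 added calls hold with a slope for each group was not tested. Ltbp2 (log2 1.63) and Ltbp4 (log2 -0.87) changed little from their values without the term.

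The clock index ran with 3 members in WT. Tgfbr1 fell with it, with r = -0.927 (permutation p = 0.00019, adjusted 0.0038) and rho = -0.927 (permutation p = 0.00032, adjusted 0.0096). Tgfb1 rose with it, with r = 0.854 (permutation p = 0.00241, adjusted 0.0196) and rho = 0.842 (permutation p = 0.00367, adjusted 0.0364). So did Tgfbr2, with r = 0.84 (permutation p = 0.00261, adjusted 0.0196) and rho = 0.83 (permutation p = 0.00461, adjusted 0.0364). Without the 2 farthest libraries r was -0.91, 0.934 and 0.865. The index also separated the WT libraries by title number, 0.12 to 2.27 in those numbered 20 to 24 and 3.07 to 4.34 in those numbered 25 to 29. So did Tgfbr1 at 41.1 to 61.1 and 32.2 to 40.3, and Tgfb1 at 12.7 to 17.7 and 18.7 to 22.8. The permutations over all 10 WT libraries take no account of these 2 sets. What the number stands for is not given in the labels. Within the WT libraries 20 to 24, Tgfbr1 was 55.4 to 61.1 in the 3 with an index of 0.12 to 0.88 and 41.1 and 48.3 in the other 2, with an index of 2.27 and 2.25. Within those numbered 25 to 29 it was 39.3 to 40.3 in the 3 with an index of 3.07 to 3.90, and 32.2 and 34.8 in the other 2, with 3.95 and 4.34. In each set the 2 libraries with the highest index had the 2 lowest Tgfbr1 values. The same libraries also had the highest adipocyte levels of their sets, at 5.51 and 5.60 (libraries 23 and 24) and 6.38 and 5.76 (libraries 28 and 29). The index and the adipocyte level therefore cannot be told apart here. Tgfb1 followed the index less closely within the sets. Library 22, with the lowest index (0.12), had 16.5, above library 24 with 15.1 at an index of 2.25. Library 28, with an index of 3.95, had the lowest Tgfb1 of its set, 18.7. The highest Tgfb1 of each set, 17.7 and 22.8, was in the library with its highest index. No correlation is given over sets of 5 libraries. In the vehicle-treated model r was 0.374 for Tgfbr1 (exact permutation p = 0.32, adjusted 0.512) and 0.319 for Tgfb1 (exact permutation p = 0.405, adjusted 0.542). With Scl-Ab r was -0.135 for Tgfbr1 (permutation p = 0.707, adjusted 0.757) and 0.27 for Tgfb1 (permutation p = 0.451, adjusted 0.564).

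**Figure D4:**
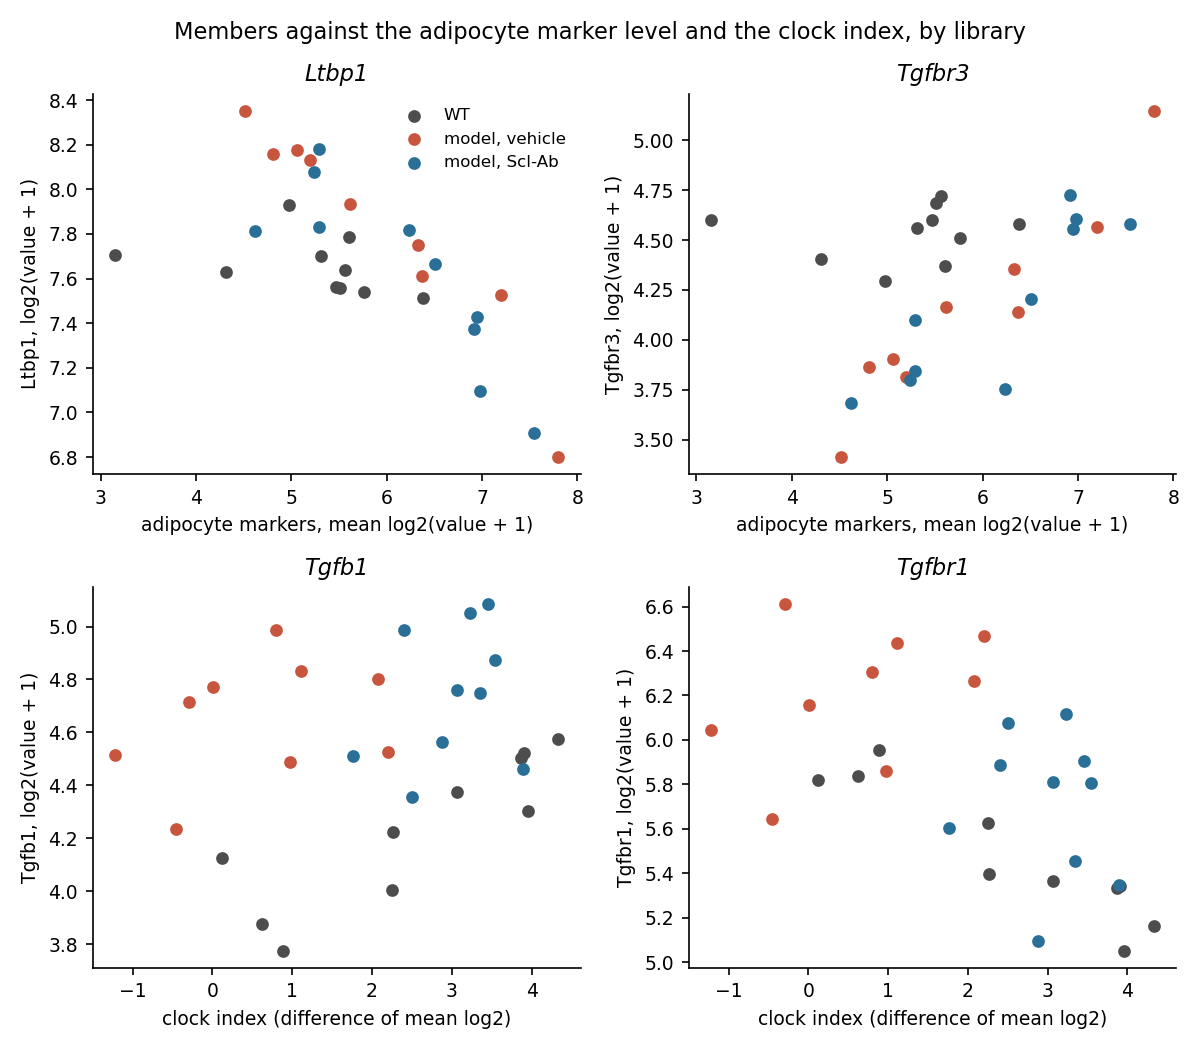
Log2(value + 1) of Ltbp1 and Tgfbr3 against the mean log2 adipocyte marker level (upper panels) and of Tgfb1 and Tgfbr1 against the clock index (lower panels); each point is 1 library and the colour its group. Ltbp1 falls (r = -0.961) and Tgfbr3 rises (r = 0.954) with the adipocyte level in the vehicle-treated model, and Tgfbr1 falls with the clock index in WT (r = -0.927).

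The genes most like each member were taken as the 2 other tested genes with the highest Pearson r over the 29 libraries after each group's mean was removed. They are a description, being the highest of 13510, and the points share the marker levels given above. Ltbp1 ran closest to Qsox1, a sulfhydryl oxidase (r = 0.970), and Cep170b (0.955). Tgfbr3 ran with Aldh6a1 (0.935), an enzyme of valine breakdown, and Negr1 (0.932), Ltbp3 with Nupr1 (0.938) and Mfge8 (0.937), and Tgfbr2 with Lgals9 (0.923) and C1qtnf1 (0.923). For Tgfb1 they were Slc6a6 (0.895), the taurine transporter, and Pip5k1c (0.872), for Tgfb2 Serpinb6b (0.912) and Rbbp4 (0.906), and for Tgfb3 Spcs3 (0.895) and Edem1 (0.881), both of the endoplasmic reticulum. Tgfbr1 ran with Pacsin2 (0.855) and Pgr (0.854). The likeness was lowest for the members that differed most between groups, Ltbp2 with Pkp1 (0.839) and Serinc2 (0.803), and Ltbp4 with Islr (0.793) and Wfikkn2 (0.782).

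The rest of the pathway was read from 5 lists with 73 genes, of which 69 were tested. In the vehicle-treated model 36 were higher and 10 lower than in WT, against 22.7% and 31% of all genes, and their median log2 change was 0.29 (-0.04 for all genes). Of the 15 latent TGF-beta activators tested, 8 rose and 1 fell (Itgb8). Thbs1, the thrombospondin that opens the latent complex, was 3.34, 5.14 and 8.07 in WT and 66.6, 115 and 163 in the vehicle-treated model, with no overlap (18.1-fold, log2 4.18, limma adjusted p = 1.02e-12). The protease genes Plau (urokinase) and Mmp2 both changed by log2 1.49 (limma adjusted p = 2.19e-06 and 1.22e-06). Nrros and Lrrc32, which hold latent TGF-beta on the surface of cells, rose by log2 1.22 and 0.82 (limma adjusted p = 3.83e-09 and 1.37e-06).

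Of the 12 matrix partners tested, 7 rose and 2 fell (Emilin1 and Adamts10). Fn1, fibronectin, on which latent complexes are first laid down, rose by log2 1.45 (limma adjusted p = 1.55e-09). Fmod, a small proteoglycan that binds TGF-beta, rose by log2 1.41 (limma adjusted p = 0.000266) and Eln, elastin, by log2 1.02 (limma adjusted p = 0.00156). Against WT libraries 20 to 24 only, Eln did not pass (log2 0.71, limma adjusted p = 0.0706). Fbn1, the fibrillin to which latent binding proteins attach, rose by log2 0.79 (limma adjusted p = 2.35e-05). Of 6 genes on the list of co-receptors and related proteins, Lrg1 (log2 1.62), Cd109 (log2 1.07) and Eng (log2 0.33) rose and Vasn (log2 -0.63) fell. Lrg1 encodes a secreted protein and not a receptor.

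Among 17 signal transducers and feedback genes 6 rose and 4 fell, in small steps. The largest changes were in the inhibitors Bambi, a decoy receptor (log2 -0.83, limma adjusted p = 2.85e-06), and Smad6 (log2 -0.70, limma adjusted p = 0.000197), both lower, and in Skil, a corepressor of SMADs (log2 0.38, limma adjusted p = 0.00577), which was higher. Skil did not pass against WT libraries 20 to 24 only (log2 0.25, limma adjusted p = 0.142). Of 19 genes known to respond to TGF-beta, 12 rose, led by Comp (log2 2.18, limma adjusted p = 1.78e-07), Lox, the lysyl oxidase that cross-links collagen and elastin (log2 1.98, limma adjusted p = 6.30e-08), and Tnc, tenascin C (log2 1.53, limma adjusted p = 1.51e-07). The 2 that fell, Acta2 and Tagln, are also among the 12 smooth muscle markers. Between Scl-Ab and vehicle 1 of the 69 genes was called, lower with Scl-Ab, while 7.44% of all genes were called. At an unadjusted p under 0.05 there were 13 of the 69, and 3378 of all 13510 genes, so the lists did not stand out from the background. The 1 called gene is given by the naming rule. It was Itgb3, a subunit of the integrin that binds latent TGF-beta, with 14.2, 23.1 and 32.2 with Scl-Ab against 19.2, 38.6 and 51.1 with vehicle (log2 -0.57, limma adjusted p = 0.0234). Itgb3 was no longer called with no filter, with equal sums, with the 2 groups alone, in the exact Wilcoxon test, with a term for the title codes, and without vehicle library 2 or 5 (adjusted p = 0.0525 to 0.0771), nor with the clock index in the fit (adjusted p = 0.927). The smallest p-values of the other lists were those of Strap (limma adjusted p = 0.0556), Adamts10 (limma adjusted p = 0.0673), Snai2 (limma adjusted p = 0.175) and Lrg1 (limma adjusted p = 0.183).

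**Figure D5:**
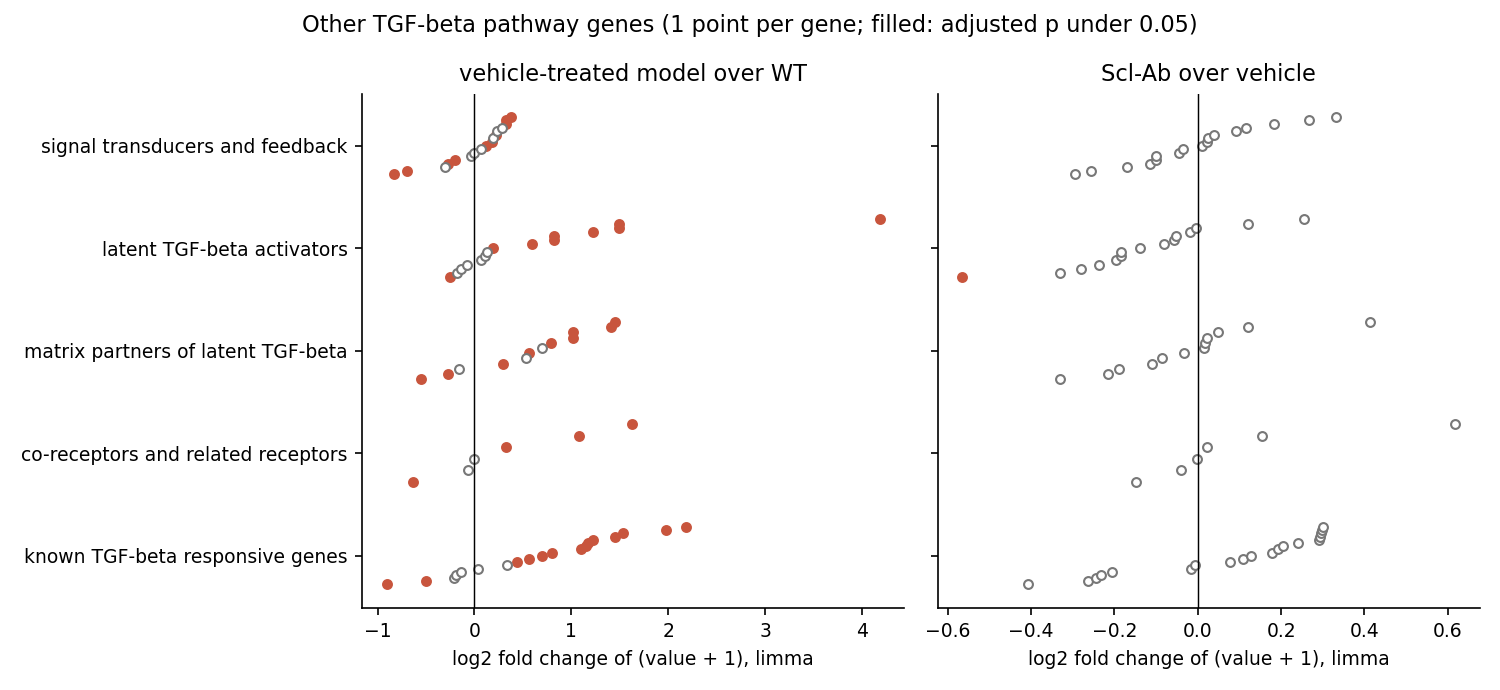
Log2 fold change of value + 1 (x axis) of the other TGF-beta pathway genes by list (y axis) in the vehicle-treated model over WT (left) and for Scl-Ab over vehicle (right, on a narrower scale); each point is 1 gene and filled points have a limma adjusted p under 0.05. Filled points on the left run from Acta2 (-0.90) to Thbs1 (4.18), and on the right Itgb3 (-0.57) is the 1 filled point.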

How the data were processed

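Each library had 1 deposited value per gene symbol. Per the file headers the authors named the unit FPKQ, and its low values lay on steps that scale with gene length, so the deposited values were treated as FPKM-like, scaled by length and to a common upper quantile. The submitters' processing notes name GRCm38 and DESeq2 1.10.1 without saying what each served for. Which aligner, counter and annotation the authors used is not given in the sources used here. No library repeats another: the smallest root mean square log2 difference within a group was 0.235. Counts were not at hand, so log2(value + 1) was analysed with limma 3.58.1 (R 4.3.3, trend and robust) in 1 fit of 29 libraries with 3 group means. The test covered the 13510 of 51456 genes that reached a value of 1 in 9 or more libraries, with Benjamini-Hochberg adjustment over all of them (threshold 0.05). On the log2(value + 1) scale the changes of low genes come out too small. The fit was tested on simulated data. Total read numbers are not known; depth was read from the steps.

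The members, the lists and the tests were chosen with earlier results of these data known. Pathway genes were named by rule: the 3 called genes of each list with the largest change, or that with the smallest p where none was called; others named were chosen after their values were seen. In the lists Ccn2 was matched as Ctgf. Gene coordinates are from GENCODE M21 (GRCm38) and promoter windows from RefSeq (GRCm38.p6). Alternatives were a pseudocount of 0.1, no filter, trimmed mean of M-values or equal-sum scaling, the 2 groups alone, an exact Wilcoxon test, terms for the adipocyte level, the clock index or the title codes, and leaving out each library. Fits with only 5 WT libraries, and with shared title code digits as a block, were added after seeing the data.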

Additional observations from a re-analysis of the deposited data

Results flagged for a closer look

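A gap test (Dixon, at the level where chance marks about 1 in 20 groups) was run on 87 groups of libraries, 30 of them groups of the 10 members, and marked 9, of which 2 were of members. Each is 1 library set apart from the rest of its group. Tgfb2 was 63.1 in vehicle library 5, where the next vehicle library had 25.8. Ltbp3 was 85.7 in vehicle library 1, below the next at 129. Among the pathway genes, Lox, the collagen and elastin cross-linking enzyme, was 444.7 in vehicle library 5 and 363.6 in Scl-Ab library 13. Comp was 199.3 in vehicle library 1, which also had the highest adipocyte marker sum. Mmp2 was 381.3 in Scl-Ab library 15 and Adamts10 102.3 in Scl-Ab library 17. In WT, Lrg1 was 14.51 in library 28 and Snai2 7.218 in library 20.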

How the results depend on the processing

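The depth, 31.6 to 43.5 fragments for a value of 1 in 2 kb, is ample for all 10 members, so the spread between libraries limits what could be seen. The Ltbp2 and Ltbp4 changes over WT passed in every alternative run. Scaling moved the median of all genes by under 0.1 log2, but the share of calls that were higher with Scl-Ab than with vehicle was 35.4% as deposited, 41.5% with trimmed mean of M-values scaling and 65.0% with equal sums. No paired analysis was possible by the replicate numbers because the groups share none. The last 2 digits of the title codes, whose meaning the labels do not give, are shared by 8 vehicle and 8 Scl-Ab libraries. Deviations from the group means correlated over 0.1 in 2 of these 8 pairs (range -0.54 to 0.618), and 1 of 8 vehicle libraries correlated best with its own digits, so they were not taken as pairs. With these digits as a replicate block, chosen after seeing the data, 0 members, 0 pathway genes and 7 of all genes were called (3, 8 and 2031 at an unadjusted p under 0.05, limma). The same 16 libraries with no block gave 0, 0 and 180 (2, 8 and 2331). The causes of the changes below were not tested.

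Against WT, 5 members were called in the vehicle-treated model, 8 with the adipocyte term, 3 with WT libraries 25 to 29 only (53.7%, 54.8% and 40.2% of all genes), and 4 to 7 when single libraries were left out. With the 2 groups alone, where 57% of all genes were called, Tgfb2 (limma adjusted p = 0.0497) and Tgfbr3 (limma adjusted p = 0.042) passed too. The exact Wilcoxon test added Tgfbr3 (adjusted p = 0.0328), with 54.1% of all genes called. In the Scl-Ab-treated model against WT the 5 became 3 with WT libraries 25 to 29 only (50.4% and 34.2% of all genes): Tgfb1 (limma adjusted p = 0.0716), Tgfb2 (0.169) and Ltbp3 (0.053) no longer passed, and Tgfbr1 (0.0246) was called higher. The adipocyte term, with 47.7% of all genes called, added Tgfbr1 (limma adjusted p = 0.00507) and Tgfbr3 (limma adjusted p = 4.82e-05). The 2 groups alone, with 51.3% called, added Tgfbr3 (limma adjusted p = 0.0284). Between Scl-Ab and vehicle the 1 called member became 0 (1 at an unadjusted p under 0.05) with no filter, equal sums, the 2 groups alone, the exact Wilcoxon test, the clock index or the title code term, and 0 to 1 when single libraries were left out. The 1 called pathway gene became 0 in the same 6 settings (1 to 13 at an unadjusted p under 0.05), 4 with the adipocyte term (Itgb3 and Strap lower, Adamts10 and Tgif1 higher) and 0 to 3 when single libraries were left out. Calls over all genes moved too: 7.44% were called in the main fit, 0 to 3.06% in these 6 settings and 11.7% with the adipocyte term.

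Reversed signs were found for values that had not passed. With the clock index, Scl-Ab against vehicle gave log2 -0.0954 for Tgfb1, -0.222 for Ltbp3, 0.0677 for Strap and -0.0722 for Adamts10, and with the adipocyte term -0.0482 for Tgfbr3. In the Scl-Ab-treated model against WT libraries 20 to 24, Tgfb3 was at -0.0166 and Tgfbr1 at -0.0164. Ltbp1 in that model was 0.0078 with equal sums, 0.241 with the adipocyte term and 0.0275 against WT libraries 25 to 29. With single libraries left out, Scl-Ab against vehicle ran from -0.0593 to 0.158 for Tgfbr3, from -0.0002 to 0.13 for Ltbp3 and from -0.0312 to 0.0756 for Ltbp4, and Ltbp1 against WT from -0.10 to 0.041.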
